A study of Mus musculus with 10 samples.

Results

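Expression of Zeb1 and of 6 genes tied to it was followed in sorted splenic cDC1s, the cross-presenting conventional dendritic cells, of 4 genotypes. The 7 genes were the repressor Zeb1, the ZEB-repressed epithelial genes Cdh1 and Epcam, the related repressors Snai1 and Snai2, and the corepressors Ctbp1 and Ctbp2. They were chosen by symbol, and all 7 were found among the 19938 genes measured, each with 1 probe set that is annotated to no other gene. Of the 10 arrays of mouse spleen cells, 3 were labelled WT and 3 Zeb2 KO, with 2 for each double knockout, Zeb2 Id2 DKO and Nfil3 Zeb2 DKO, so that every group but WT is labelled as lacking Zeb2. Nfil3, the further gene lacking in the latter, encodes a leucine zipper repressor, and Id2, lacking in the former, a protein which keeps E proteins off DNA. Strain, age, the promoter or Cre driver of each deletion and the pooling of animals are not given in the sources used here. Nor are replicates stated to be separate animals, and p-values therefore measure the spread between these samples alone. The question put to these data was whether genes that ZEB proteins are known to repress rise, or Zeb1 rises in place of its paralog, when Zeb2 is deleted.

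Zeb1 and Zeb2 are paired zinc finger and homeodomain proteins that bind E-box sequences (CACCTG and its reverse complement CAGGTG) and recruit corepressors, among them CtBP1 and CtBP2. In epithelial cells they silence E-cadherin (Cdh1) and other junction genes during the epithelial-mesenchymal transition, a programme that Snai1 and Snai2 also drive, and microRNAs of the miR-200 family in turn silence both ZEB genes. In dendritic cells Zeb2 is known for its part in the choice between the cDC1, cDC2 and plasmacytoid fates, and E-cadherin and EpCAM are best known there from Langerhans cells of the epidermis.

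Of the promoter sequences used here (RefSeq, build GRCm38.p6, the 250 bases before a gene's start), 4 of the 7 genes had a window: Epcam, Snai1, Ctbp1 and Ctbp2. The E-box CACCTG or CAGGTG, searched on both strands, was found in 17.2% of all 32851 windows of this length. The window of Epcam, which encodes an epithelial adhesion molecule, is shown because it holds 2 such E-boxes (capitals), at -187 and -19 from the gene's start, and that of Snai1 because it holds 1, at -126. The windows of Ctbp1 and Ctbp2 held none. That of Spint1, a serine protease inhibitor of epithelia, is shown as the promoter of the epithelial gene with the smallest adjusted p below, and it holds none. Of 40 epithelial genes listed below, 25 had a window (62.5%), so a share over that list is void. A match describes letters only, not a bound site.
Epcam, chr17:87635729-87635978, plus strand: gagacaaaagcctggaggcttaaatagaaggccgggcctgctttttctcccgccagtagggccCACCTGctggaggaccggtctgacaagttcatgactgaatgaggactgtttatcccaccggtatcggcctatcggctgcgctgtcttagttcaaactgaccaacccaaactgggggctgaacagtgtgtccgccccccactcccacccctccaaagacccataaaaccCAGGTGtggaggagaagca
Snai1, chr2:167537945-167538194, plus strand: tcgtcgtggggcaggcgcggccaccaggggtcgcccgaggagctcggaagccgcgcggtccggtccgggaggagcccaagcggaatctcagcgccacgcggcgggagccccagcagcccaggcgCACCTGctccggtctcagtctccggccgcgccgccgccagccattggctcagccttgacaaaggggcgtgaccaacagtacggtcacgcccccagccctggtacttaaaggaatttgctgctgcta
Spint1, chr2:119237110-119237359, plus strand: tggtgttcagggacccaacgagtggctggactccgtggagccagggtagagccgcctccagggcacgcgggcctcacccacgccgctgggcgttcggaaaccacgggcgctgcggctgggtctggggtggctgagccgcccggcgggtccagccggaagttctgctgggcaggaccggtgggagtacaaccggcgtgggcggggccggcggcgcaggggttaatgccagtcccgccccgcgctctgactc

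The 5 mature microRNAs of the ZEB feedback loop whose precursor genes were on the array are shown with their seeds, bases 2 to 8, in capitals (RefSeq, GRCm38.p6). A seed is shared by miR-141-3p and miR-200a-3p, and another seed by miR-200b-3p and miR-200c-3p. miR-205-5p has its own seed. The probe sets are those of the precursor genes, not of these mature arms.
mmu-miR-141-3p: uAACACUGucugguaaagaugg
mmu-miR-200a-3p: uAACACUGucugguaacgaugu
mmu-miR-200b-3p: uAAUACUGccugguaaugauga
mmu-miR-200c-3p: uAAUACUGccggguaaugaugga
mmu-miR-205-5p: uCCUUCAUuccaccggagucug

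All levels are log2 RMA intensities, and every difference is a difference of log2 means from 1 limma fit over all 10 arrays and 19938 genes, with 95% confidence intervals in brackets. A gene was called when its Benjamini-Hochberg adjusted p was under 0.05. The labels were checked first. Nfil3 averaged 6.64 in Nfil3 Zeb2 DKO against 10.48 in WT, and Id2 averaged 4.99 in Zeb2 Id2 DKO against 10.30 in WT. No fall of Zeb2 was called where it is labelled as deleted: the arrays labelled WT gave 6.0, 5.93 and 6.30, those labelled Zeb2 KO gave 6.10, 6.27 and 5.40, those labelled Nfil3 Zeb2 DKO gave 6.46 and 6.24, and those labelled Zeb2 Id2 DKO gave 6.78 and 6.82. The 3 differences did not pass the test (adjusted p = 0.929, 1 and 0.184 against WT). In Zeb2 Id2 DKO both arrays lay above all WT and Zeb2 KO arrays. There Zeb2 was 0.724 [0.243 to 1.205] higher than in WT (limma, unadjusted p = 0.0071). Against Zeb2 KO it was 0.88 [0.399 to 1.361] higher (unadjusted p = 0.0021, adjusted p = 0.166). The WT signal of Zeb2 was itself modest, at percentile 41.7 of all genes, below the median gene. Whether that level hides a fall, or the Zeb2 probes lie outside the deleted part, was not tested, so the group names below are those of the labels. The cDC1 markers, among them Xcr1, Clec9a and Irf8, were high in every array: the mean level of the 8 markers ran from 11.12 to 11.27. Of the 8, 1 was called in Zeb2 Id2 DKO against WT, Cadm1, which fell (log2 -0.87, adjusted p = 0.00225). The mean hides shifts in both directions there: differences ran from -0.871 to 0.559, with 4 positive and 4 negative. An unadjusted limma p under 0.05 was seen for 4 of the 8. Zeb2 KO replicate 3 stood apart from the rest, with a correlation as low as 0.986 to an array of its own group, against 0.993 or more within the other groups. It was the highest or lowest of the 10 arrays for 43.7% of all genes, against 13.1% to 26.7% for the other arrays, and for 4 of the 7 genes described here. Its omission is described below where it changed a call in the 7 genes or the gene lists of the ZEB circuit, and for those 4 genes.

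Cdh1 was the 1 of the 7 genes that passed the test in any comparison, and only between Zeb2 Id2 DKO and WT, where it was 1.86-fold higher. Its product, E-cadherin, is the calcium-dependent adhesion molecule of adherens junctions. WT arrays gave 6.01, 5.93 and 5.96, and Zeb2 Id2 DKO arrays gave 6.81 and 6.91. Zeb2 KO gave 6.61, 6.35 and 5.85, and Nfil3 Zeb2 DKO gave 6.30 and 6.13. The WT level lay at percentile 39.5 of all genes, below the median gene. The WT arrays lay close together (SD 0.04), and both Zeb2 Id2 DKO arrays were above every other array. The Zeb2 KO arrays were spread the widest (SD 0.38): replicates 1 and 2 lay above all WT arrays, and replicate 3 was the lowest of all 10.

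The log2 difference in Cdh1 between Zeb2 Id2 DKO and WT was 0.89 [0.51 to 1.28] (limma, adjusted p = 0.0332). Between these groups 1.43% of all genes were called (0.878% higher and 0.557% lower). The difference was 0.30 [-0.04 to 0.65] in Zeb2 KO (adjusted p = 0.732) and 0.25 [-0.13 to 0.63] in Nfil3 Zeb2 DKO (adjusted p = 1). Neither passed the test. Of all genes, 0.0201% were called in the first of these comparisons (0.00502% higher and 0.015% lower) and 0.00502% in the other, where the single call was lower. These 3 comparisons share the WT arrays. The mean over all 3 labelled Zeb2-deleted genotypes was 0.48 [0.19 to 0.77] above WT (adjusted p = 0.312), with 0.236% of all genes called (0.0802% higher and 0.155% lower) and 6 of the 7 arrays above every WT array. In order, the group means were 5.97 in WT, 6.22 in Nfil3 Zeb2 DKO, 6.27 in Zeb2 KO and 6.86 in Zeb2 Id2 DKO, and no neighbouring pair in this order passed the test (adjusted p = 1, 0.960 and 0.299). Against Nfil3 Zeb2 DKO, Cdh1 was 0.64 [0.22 to 1.07] higher in Zeb2 Id2 DKO (adjusted p = 0.182, with 0.792% of genes called, 0.582% higher and 0.211% lower).

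The rise of Cdh1 in Zeb2 Id2 DKO kept its size when arrays were left out (log2 difference 0.84 to 0.95), while the call was lost when any single array of WT or of either double knockout was omitted (adjusted p up to 0.289). This difference (0.893) cannot change when an array of another group is omitted, and only the spread estimated around it does. Without Zeb2 KO replicate 3 it was called with an adjusted p of 0.000527 (3.81% of all genes called), and Cdh1 was then also called between Zeb2 KO and WT (log2 0.51, adjusted p = 0.0371, with 0.828% of all genes called) and between all labelled Zeb2-deleted arrays and WT (0.55, adjusted p = 0.00697, with 1.19% called). It was likewise called between Zeb2 Id2 DKO and Nfil3 Zeb2 DKO (0.64, adjusted p = 0.00826, with 3.53% called). The omitted array is the one lowest in Cdh1. Between Zeb2 KO and WT the difference ran from 0.135 to 0.511 over the 10 omissions of a single array, and 1 of these gave a call.

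**Figure D1:**
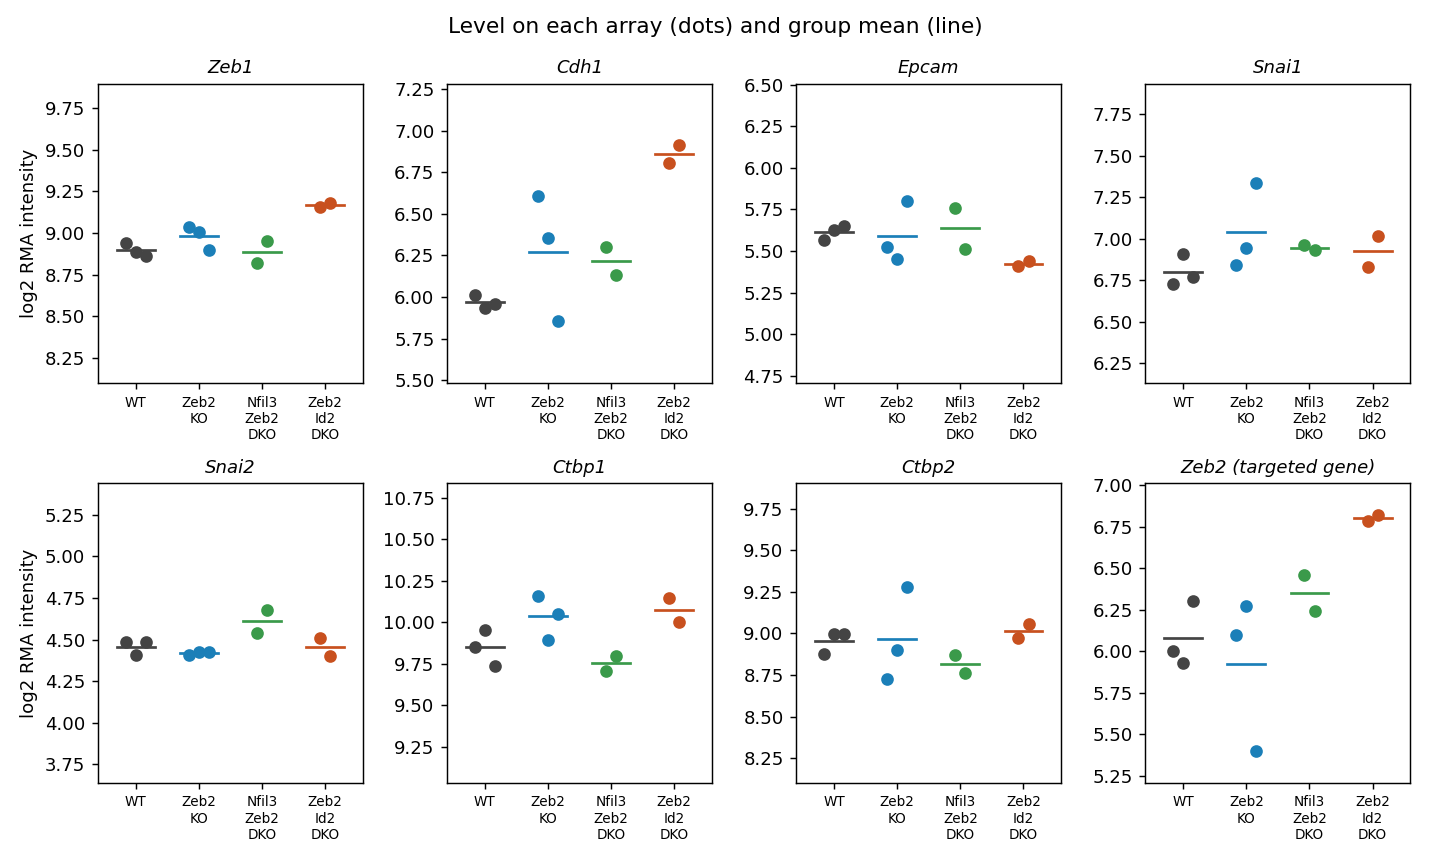
Log2 RMA intensity (vertical axis, centred differently in each panel but with the same length of scale) of the 7 genes and of the targeted gene Zeb2 on each of the 10 arrays, with dots for arrays and lines for group means. Cdh1 lies at 6.81 and 6.91 in Zeb2 Id2 DKO, above all other arrays, and Zeb2 KO replicate 3 at 5.85 is its lowest value.

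Markers of other cell types moved in the same arrays. In Zeb2 Id2 DKO the mean level of 8 neutrophil markers was 9.23 and 10.67 against 7.21 to 7.62 in WT (7 of 8 called higher), that of 6 erythroid markers 7.51 and 7.33 against 6.63 to 6.89 (2 of 6, Car2 and Hemgn), and that of 5 plasmacytoid dendritic cell markers 8.58 and 8.43 against 7.70 to 8.03 (2 of 5, Siglech and Bst2). The neutrophil markers were also high in Zeb2 KO, at 10.56, 9.46 and 9.62, where 1 of 8 was called (Ngp), and stood at 8.03 and 8.84 in Nfil3 Zeb2 DKO. On Zeb2 KO replicate 3, the array lowest in Cdh1, the lists differed in direction. Relative to the WT mean, the neutrophil list stood at 2.19 (2.03 on replicate 2), the plasmacytoid dendritic cell list at -0.37 and the B cell list at -1.22. The red pulp macrophage list stood at 0 there, against -0.70 and -0.71 on Zeb2 KO replicates 1 and 2. Between Zeb2 Id2 DKO and WT, 3 of 5 T cell markers, 1 of 6 natural killer cell markers, 2 of 6 red pulp macrophage markers and 1 of 6 endothelial markers fell. Of 5 B cell and 6 stromal markers, 0 passed limma's test (1 each at an unadjusted p under 0.05). The mean of the B cell markers was uneven within groups. It was 8.35, 6.99 and 6.81 for WT replicates 1 to 3 and 6.48, 7.47 and 6.17 for Zeb2 KO. In Zeb2 Id2 DKO it was 6.71 and 6.68. Of 6 cDC2 markers 0 were called against WT, and 4 had an unadjusted limma p under 0.05 in both Zeb2 KO and Zeb2 Id2 DKO. Their median log2 differences there were -0.296 and -0.293. They ran from -1.395 to 0.809 in Zeb2 KO, with 1 positive, and from -1.014 to 0.97 in Zeb2 Id2 DKO, with 2 positive. The part of these cell types in the level of Cdh1 was not tested. Epithelial cell markers, 7 genes that include Krt5, Krt14 and Trp63, had no call: their mean was 5.88 and 5.75 in Zeb2 Id2 DKO against 5.78 to 5.85 in WT, and 0 of 7 passed limma's test in each of the 3 comparisons with WT (1 of 7 at an unadjusted p under 0.05 in each). In a sorted bulk sample, fewer cells of a type and less RNA per cell cannot be told apart.

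**Figure D2:**
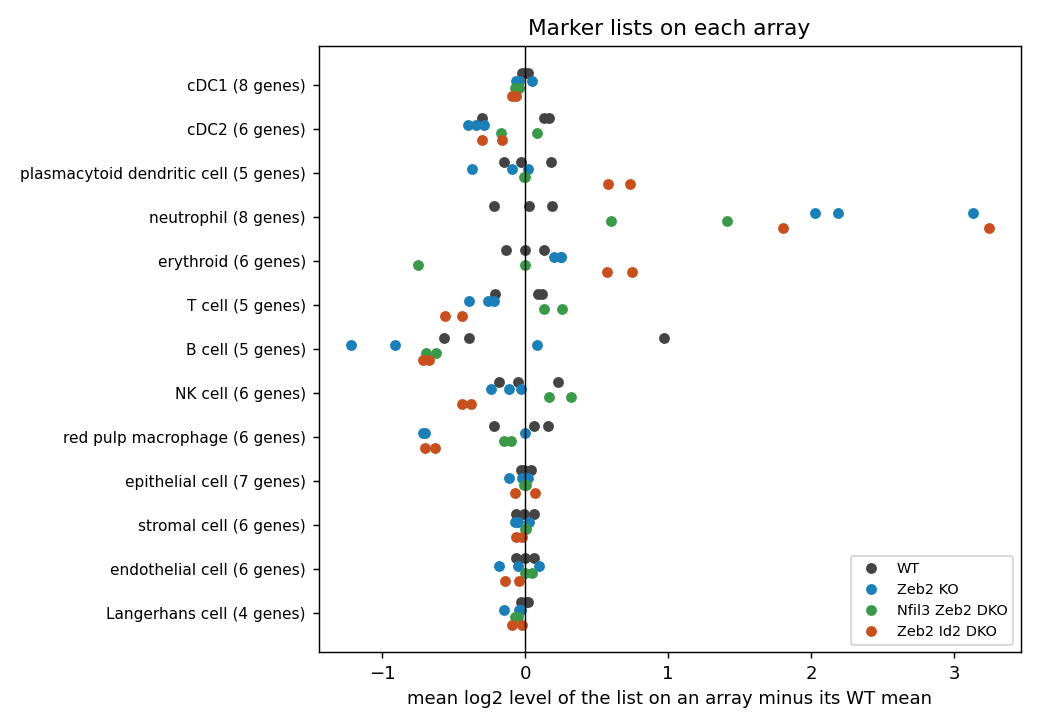
Mean log2 level of each marker list on each array minus the list's WT mean (horizontal axis), with the number of measured genes in brackets. Neutrophil markers lie 1.80 and 3.24 above WT in the Zeb2 Id2 DKO arrays and epithelial cell markers 0.07 above and 0.07 below.

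Epcam, the other epithelial gene, did not pass in any comparison. It read 5.57, 5.63 and 5.65 for WT, 5.52, 5.45 and 5.80 for Zeb2 KO, 5.76 and 5.51 for Nfil3 Zeb2 DKO and 5.41 and 5.44 for Zeb2 Id2 DKO. The Zeb2 Id2 DKO arrays were the lowest of the 10, and the other groups overlapped, with Zeb2 KO replicate 3 the highest. Its differences from WT were -0.02 [-0.25 to 0.20], 0.02 [-0.23 to 0.27] and -0.19 [-0.44 to 0.06] in the Zeb2 single, Nfil3 double and Id2 double knockouts (limma, adjusted p = 0.985, 1 and 0.693). The upper ends of these intervals stand for rises of 1.15-fold, 1.21-fold and 1.04-fold. These bounds hold for the array signal only, which was low: in WT Epcam lay at percentile 31.9 of all genes. Without Zeb2 KO replicate 3 the first difference was -0.13. The sign changed under 4 of 18 other settings of the analysis in Nfil3 Zeb2 DKO and under 2 of 18 in Zeb2 KO, and under 0 of 18 in Zeb2 Id2 DKO. The order of the means was 5.42 in Zeb2 Id2 DKO, 5.59 in Zeb2 KO, 5.62 in WT and 5.64 in Nfil3 Zeb2 DKO, with no difference between neighbours that passed the test.

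Zeb1, the paralog, had a high signal in every group, and no rise of it passed the test. It read 8.94, 8.89 and 8.86 for WT, 9.04, 9.01 and 8.90 for Zeb2 KO, 8.82 and 8.95 for Nfil3 Zeb2 DKO and 9.16 and 9.18 for Zeb2 Id2 DKO. The WT level lay at percentile 84.1 of all genes, a rank that also depends on how well each probe set hybridises. The arrays of Zeb2 KO and of Nfil3 Zeb2 DKO overlapped with WT, while both Zeb2 Id2 DKO arrays lay above all others. The difference from WT was 0.08 [-0.08 to 0.25] in Zeb2 KO (limma, adjusted p = 0.890), and the interval runs from 0.946-fold to 1.19-fold. This difference was 0.13 without Zeb2 KO replicate 3 (adjusted p = 0.517). It was -0.01 [-0.19 to 0.17] in Nfil3 Zeb2 DKO (adjusted p = 1), or 0.874-fold to 1.13-fold. In Zeb2 Id2 DKO it was 0.27 [0.09 to 0.46] (unadjusted p = 0.00753, adjusted p = 0.190), or 1.06-fold to 1.37-fold. Over all labelled Zeb2-deleted arrays it was 0.12 [-0.02 to 0.25] (adjusted p = 0.899). The means in order were 8.89 in Nfil3 Zeb2 DKO, 8.90 in WT, 8.98 in Zeb2 KO and 9.17 in Zeb2 Id2 DKO, and no pair among them passed the test. A fit that weights arrays by their scatter called it in Zeb2 Id2 DKO against WT (0.28, adjusted p = 0.0367) and against Nfil3 Zeb2 DKO (0.28, adjusted p = 0.0427).

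**Figure D3:**
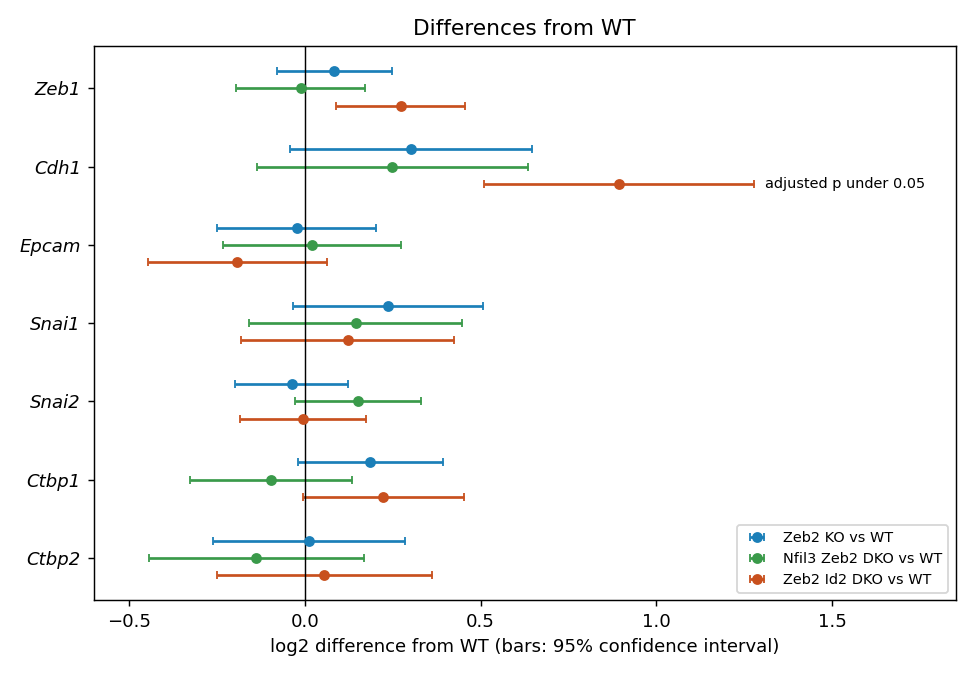
Log2 difference from WT (horizontal axis) of the 7 genes in the 3 labelled Zeb2-deleted genotypes, with bars for 95% confidence intervals of the limma fit. The interval of Cdh1 in Zeb2 Id2 DKO (0.51 to 1.28) is the 1 marked as called, and that of Zeb1 there runs from 0.09 to 0.46.

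Snai1 and Snai2, zinc finger repressors that act on the same E-boxes in epithelial cells, did not pass in any comparison. Snai1 read 6.73, 6.91 and 6.77 for WT, 6.84, 6.94 and 7.34 for Zeb2 KO, 6.96 and 6.93 for Nfil3 Zeb2 DKO and 6.83 and 7.02 for Zeb2 Id2 DKO. Only the Nfil3 Zeb2 DKO arrays lay entirely above WT, and the highest array was Zeb2 KO replicate 3. Differences of Snai1 from WT were 0.24 [-0.03 to 0.51], 0.14 [-0.16 to 0.45] and 0.12 [-0.18 to 0.42] in the Zeb2 single, Nfil3 double and Id2 double knockouts (limma, adjusted p = 0.733, 1 and 0.924). Without Zeb2 KO replicate 3 the first of these was 0.09. Snai2 was low, at percentile 12.6 in WT: 4.48, 4.41 and 4.48 there, 4.41, 4.43 and 4.43 for Zeb2 KO, 4.54 and 4.68 for Nfil3 Zeb2 DKO, 4.51 and 4.40 for Zeb2 Id2 DKO. All 10 values lay between 4.40 and 4.68, with the Nfil3 Zeb2 DKO arrays the highest (0.15 [-0.03 to 0.33] against WT, adjusted p = 1, and 0.19 [0.01 to 0.37] against Zeb2 KO, adjusted p = 0.566).

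Ctbp1 and Ctbp2, the paralogous corepressors that ZEB proteins recruit, had high signals in WT (percentiles 92.8 and 84.8) and did not pass in any comparison. Ctbp1 read 9.85, 9.96 and 9.74 for WT, 10.16, 9.89 and 10.05 for Zeb2 KO, 9.71 and 9.80 for Nfil3 Zeb2 DKO and 10.14 and 10.00 for Zeb2 Id2 DKO. Its means in order were 9.75 in Nfil3 Zeb2 DKO, 9.85 in WT, 10.04 in Zeb2 KO and 10.07 in Zeb2 Id2 DKO. Both Zeb2 Id2 DKO arrays lay above all WT arrays. The Nfil3 Zeb2 DKO arrays lay below all Zeb2 KO and Zeb2 Id2 DKO arrays, by -0.28 [-0.51 to -0.05] (adjusted p = 0.478) against the former, while the latter lay 0.32 [0.07 to 0.57] above Nfil3 Zeb2 DKO (adjusted p = 0.296). Against WT the differences were 0.19 [-0.02 to 0.39], -0.10 [-0.32 to 0.14] and 0.22 [-0.01 to 0.45] in the same order of genotypes as for Snai1 (limma, adjusted p = 0.715, 1 and 0.509).

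Ctbp2 read 8.88, 9.0 and 9.0 for WT, 8.73, 8.90 and 9.28 for Zeb2 KO, 8.87 and 8.76 for Nfil3 Zeb2 DKO and 8.97 and 9.06 for Zeb2 Id2 DKO. Zeb2 KO held both the lowest and the highest array, and the highest was again replicate 3. Both Nfil3 Zeb2 DKO arrays lay below all WT arrays. The differences from WT were 0.01 [-0.26 to 0.28], -0.14 [-0.44 to 0.17] and 0.06 [-0.25 to 0.36], again in that order (limma, adjusted p = 0.995, 1 and 0.975). In Zeb2 KO this value became -0.14 without replicate 3.

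The 3 genes most like Zeb1 by Pearson correlation over the 10 arrays were Atrn (r = 0.986), Gas7 (0.976) and Cux1 (0.975), and those most like Cdh1 were Slfn5 (0.964), S100a6 (0.958) and Nt5c3 (0.941). Slfn5, an interferon-induced Schlafen gene, averaged 11.25 in Zeb2 Id2 DKO against 9.48 in WT, with 9.62 in Nfil3 Zeb2 DKO and 9.79 in Zeb2 KO. Epcam was most like Tpp1 (0.955), Lgmn (0.938) and Foxp4 (0.915), which were lowest in Zeb2 Id2 DKO (Lgmn 8.90 against 9.45 in WT). Snai1 was most like Haspin, Mbd6 and Tufm (0.911 to 0.922), Snai2 like Defb46, Klhl25 and Jph2 (0.871 to 0.903), Ctbp1 like Rbm22, Fech and Bnip3l (0.936 to 0.957), and Ctbp2 like Bcl7c, Aebp2 and Ino80b (0.892 to 0.940). These are the highest of 391 genes searched for Cdh1 and 3483 to 8386 for the other 6 over arrays that share 4 genotypes, and they describe these arrays only.

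The wider set of epithelial genes that ZEB proteins are known to repress showed few calls, in both directions. Of 40 listed, 39 were measured. In Zeb2 KO 0 of 39 were called in either direction (2 at an unadjusted p under 0.05), their median log2 difference from WT was -0.03 and that of all genes 0.00. In Nfil3 Zeb2 DKO 0 of 39 were called (3 at an unadjusted p under 0.05; median 0.04, all genes 0.01). In Zeb2 Id2 DKO 1 rose, Cdh1, and 2 fell, Spint1 and Lad1 (median -0.02, all genes -0.01), where 0.878% of all genes were called higher and 0.557% lower. Most of the list was low: 12 of 39 lay above the median gene in WT. The epithelial transcription factor Grhl2, the splicing regulator Esrp1 and the tight junction genes Ocln and Cldn7 lay between 4.70 and 5.63 on all arrays. Without Zeb2 KO replicate 3, 1 rose and 1 fell in Zeb2 KO (Cdh1 as above and Lad1, -1.18, adjusted p = 0.0263), with 0.828% of all genes called, and 1 rose (Cdh1) and 3 fell (Spint1, Lad1 and F11r) in Zeb2 Id2 DKO, with 3.81% of all genes called. Between Zeb2 Id2 DKO and Nfil3 Zeb2 DKO the same 4 genes were then called in the same directions (3.53% of all genes called). Lad1 was then also called lower over all labelled Zeb2-deleted arrays (-0.90, adjusted p = 0.0190) and higher in Nfil3 Zeb2 DKO than in Zeb2 KO (1.20, adjusted p = 0.0430), with 1.19% and 0.532% of all genes called.

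Spint1 encodes an inhibitor of membrane serine proteases. It read 10.28, 10.34 and 10.37 for WT, 10.18, 10.28 and 10.43 for Zeb2 KO, 10.51 and 10.40 for Nfil3 Zeb2 DKO and 9.68 and 9.56 for Zeb2 Id2 DKO. Only the Zeb2 Id2 DKO arrays lay apart, below all others, by -0.71 [-0.92 to -0.50] against WT (limma, adjusted p = 0.00558), -0.68 [-0.89 to -0.47] against Zeb2 KO (adjusted p = 0.0110, 0.497% of genes called, 0.366% higher and 0.13% lower) and -0.84 [-1.07 to -0.61] against Nfil3 Zeb2 DKO (adjusted p = 0.00507). Without Zeb2 Id2 DKO replicate 2 the call against WT was lost (adjusted p = 0.0862). Against Zeb2 KO it was lost when replicate 1 or 2 of Zeb2 Id2 DKO was omitted (up to 0.176), and without Zeb2 KO replicate 3 the difference was -0.61 (adjusted p = 0.00910). It was lost against Nfil3 Zeb2 DKO without Nfil3 Zeb2 DKO replicate 1 or Zeb2 Id2 DKO replicate 2 (up to 0.0956).

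Lad1 encodes ladinin, a basement membrane anchoring protein. It read 7.81, 8.32 and 8.24 for WT, 6.89, 7.0 and 7.89 for Zeb2 KO, 8.5 and 7.78 for Nfil3 Zeb2 DKO and 6.56 and 6.62 for Zeb2 Id2 DKO. The Zeb2 Id2 DKO arrays and Zeb2 KO replicates 1 and 2 were low, and Zeb2 KO replicate 3 lay within the WT range. Lad1 fell by 1.53 on the log2 scale in Zeb2 Id2 DKO against WT [-2.18 to -0.88] (adjusted p = 0.0311), a call that did not survive the omission of WT replicate 2, of WT replicate 3 or of a Zeb2 Id2 DKO array (up to 0.250). F11r, which encodes the junctional adhesion molecule JAM-A, was 0.68 lower in Zeb2 Id2 DKO than in Nfil3 Zeb2 DKO (log2 -0.68 [-0.96 to -0.40], adjusted p = 0.0414) and had -0.52 against WT (adjusted p = 0.0650). That call was lost when any single array of WT or of a double knockout was omitted (up to 0.384). Its promoter window held 1 E-box, at -122, and that of Lad1 held none.

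**Figure D4:**
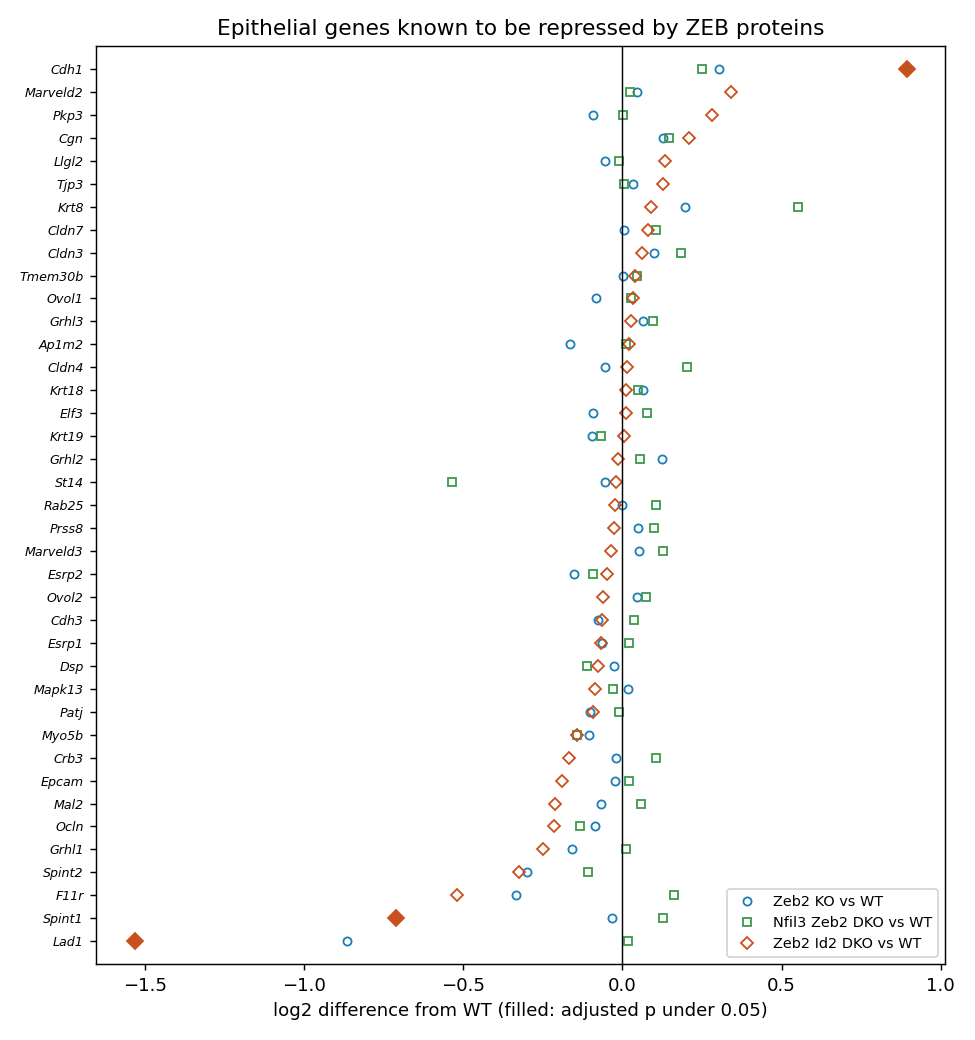
Log2 difference from WT (horizontal axis) of the 39 measured epithelial genes in the 3 labelled Zeb2-deleted genotypes, ordered by the value in Zeb2 Id2 DKO, with filled symbols for called genes. Cdh1 at 0.89 is the highest value and Lad1 at -1.53 the lowest.

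Partners of E-cadherin showed 1 call among 6 genes in Zeb2 Id2 DKO against WT, where 1.43% of all genes were called. Vcl, which encodes vinculin, a link from junctions to actin, stood at 9.19 and 9.02 there against 8.63, 8.38 and 8.41 in WT. This log2 difference was 0.63 [0.35 to 0.91] (limma, adjusted p = 0.0377). Vcl was also higher than in Nfil3 Zeb2 DKO (0.75, adjusted p = 0.0390, with 0.792% of all genes called). The first call was lost without WT replicate 2 or 3, Zeb2 KO replicate 1 or any double knockout array (up to 0.363), and so was the second (up to 0.329). Their adjusted p was 0.00869 and 0.00760 without Zeb2 KO replicate 3, with 3.81% and 3.53% of all genes called. The catenins had no call: Ctnna1 stood at 8.90 and 8.87 in Zeb2 Id2 DKO against 8.62 to 8.66 in WT, and Ctnnb1 at 10.07 and 9.99 against 9.87 to 10.19. Ctnnd1, the p120 catenin that holds E-cadherin at the membrane, stood at 6.73, 6.76 and 6.0 for Zeb2 KO and 6.33 and 6.59 for Nfil3 Zeb2 DKO against 7.40, 7.29 and 7.10 for WT, without overlap, and at 7.33 and 6.96 in Zeb2 Id2 DKO. Its mean over the labelled Zeb2-deleted groups was 0.56 below WT (log2 -0.56 [-0.93 to -0.20], adjusted p = 0.352). Without Zeb2 KO replicate 3 it was called there (log2 -0.48, adjusted p = 0.0474, with 1.19% of all genes called). Without that array it was also called higher in Zeb2 Id2 DKO than in Nfil3 Zeb2 DKO (log2 0.68, adjusted p = 0.0268, with 3.53% called).

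Other parts of the ZEB circuit held no called gene in any of the 7 comparisons. This covers 11 transcription factors of the epithelial-mesenchymal transition, 14 mesenchymal genes, 14 measured genes of the CtBP complex, 11 of the NuRD complex, 5 lymphoid genes that ZEB1 is known to bind and 5 microRNA precursor genes. Between the labelled Zeb2-deleted arrays and WT, their unadjusted p was under 0.05 for 0, 0, 1, 1, 0 and 0 genes. Their median differences there lay between -0.05 for the lymphoid genes and 0.03 for the microRNA genes, beside 0.00 for all genes. The genes with the largest such differences were Snai1 (0.17), Zeb1 (0.12) and Foxc2 (-0.09) among the transcription factors. Among the mesenchymal genes they were the matrix gene Tgfbi (-0.14), the N-cadherin gene Cdh2 (-0.12) and the matrix gene Sparc (-0.11). In the CtBP complex they were Zfp217 (0.15), Wiz (0.12) and Ctbp1 (0.10), and in NuRD the remodeller Chd3 (-0.19), Mbd3 (0.16) and Mta2 (0.14). Among the lymphoid genes they were Bcl6 (0.21), Cd4 (-0.20) and Gata3 (-0.10), and among the precursor genes Mir200b (-0.10), Mir200c (0.09) and Mir141 (0.08). None of these passed the test. Vim, the vimentin gene and a mesenchymal hallmark that leukocytes also express, ran from 11.73 to 12.37 over all arrays. Itga4 and Bcl6, lymphoid targets of ZEB1, averaged 12.52 and 9.65 in WT, while Il2 and Gata3 reached at most 5.38 on any array. The precursor genes of miR-141, miR-200b and miR-205 lay between 3.65 and 4.61, and those of miR-200a and miR-200c between 5.42 and 6.37. With Zeb2 KO replicate 3 left out, the calls within these lists over the 7 comparisons were all in Zeb2 Id2 DKO. Against WT, where 3.81% of all genes were then called, they were Cdyl of the CtBP complex (log2 0.39, adjusted p = 0.0232), Chd3 of NuRD (log2 -0.37, adjusted p = 0.0203) and Bcl6 (log2 0.44, adjusted p = 0.0203). Against Nfil3 Zeb2 DKO, where 3.53% of all genes were called, Cdyl was the call (log2 0.47, adjusted p = 0.0172).

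Cd207, the langerin gene that marks Langerhans cells and some cDC1s, had no call: WT arrays gave 8.0, 8.03 and 8.08 and Zeb2 Id2 DKO arrays 7.24 and 6.67 (log2 difference -1.08 [-1.62 to -0.55], adjusted p = 0.0602). The Langerhans cell marker list, 4 measured genes that include Cdh1, Epcam and Cd207, had 1 call there, Cdh1, and a mean level of 7.85 to 7.92 in Zeb2 Id2 DKO against 7.91 to 7.97 in WT.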

How the data were processed

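Total RNA of cDC1s sorted from digested spleens was labelled with biotin after NuGen Ovation Pico amplification and hybridised to Affymetrix Mouse Gene 1.0 ST arrays, 10 in all. The authors ran RMA in Affymetrix Expression Console, per the submitters' processing notes. Their range (5.05 to 16019) shows the deposited intensities to be linear, and log2 of each was taken here.

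Of 28853 probe sets, 21789 named 1 gene, 1621 several and 5443 none. Gene identifiers of 21698 of the 21789 had a match in RefSeq's gene list (GRCm38.p6, used for names only), and 0 symbols changed. The probe set with the highest mean was used per gene (999 genes had several). No filter on level was used.

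A mean per genotype was fitted with limma 3.58.1 (R 4.3.3) to all 10 arrays (6 residual degrees of freedom, prior 4.47), with 7 comparisons, each adjusted by Benjamini-Hochberg over 19938 genes. Every p given is from limma. The median 95% interval reached 0.18 to 0.26 log2 to either side; the number of arrays limits precision. The fit was tested on simulated data. No pair of arrays was identical. Median intensities ran from 76.3 to 82.9.

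The 7 genes, gene lists and tests were chosen with earlier results of these data known. Named genes are the 7, the targeted genes, every called list member, otherwise up to 3 per list with the largest difference between Zeb2-deleted and WT arrays, and the 3 genes most alike to each (level at least the median gene's, spread at least that gene's, no predicted genes, small RNAs or receptor segments). Grhl2, Esrp1, Ocln, Cldn7, Vim, Ctnna1, Ctnnb1, Itga4, Il2, Cdyl and Cd207 were named after their values were seen. Alternatives covered probe sets, a low filter, normalization, centring, a pseudocount, the variance model, array weights, the arrays fitted, a replicate block and leaving out each array.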

Additional observations from a re-analysis of the deposited data

How the results depend on the processing

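Cdh1 in Zeb2 Id2 DKO against WT kept its direction under all 19 other settings run (log2 0.75 to 0.95, adjusted p = 0.000333 to 0.289) and was called in 8 of them. Settings that omit arrays of other groups, or change only the variance model or the genes kept, cannot move this difference (0.893). Its direction there was fixed in advance. Cdh1 lost its call, leaving 0 of the 7 genes called, after a further quantile normalization (adjusted p = 0.0624), median centring (0.0633), log2(intensity + 16) (0.0561), which lowers differences of dim genes by construction, and with the replicate block (0.06). Array weights called 2 of the 7 genes there (Cdh1 and Zeb1), 2 in Zeb2 Id2 DKO against Nfil3 Zeb2 DKO and 1 in all Zeb2-deleted against WT, and a fit to 2 groups alone called 1 in Zeb2 Id2 DKO against Nfil3 Zeb2 DKO. With arrays left out, 0 to 1 of the 7 were called in Zeb2 KO, Zeb2 Id2 DKO and all Zeb2-deleted against WT and in Zeb2 Id2 DKO against Nfil3 Zeb2 DKO, and 0 in the other 3 comparisons. The filter (log2 6 on 2 arrays) left 5 of the 7 genes, without Epcam and Snai2, and the fit to 2 groups alone has no value for all Zeb2-deleted against WT.

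Counts of called genes over all 19938 moved more. Zeb2 KO against WT had 4, and 0 with median centring or the pseudocount, 75 with array weights, 8 with the replicate block, 1 in the 2-group fit and 0 to 165 with an array left out. Nfil3 Zeb2 DKO against WT had 1, and 23 with array weights, 2 in the 2-group fit and 1 to 7 with an array left out. Zeb2 Id2 DKO against WT had 286, and 1076 with weights, 183 with the block, 554 in the 2-group fit and 67 to 760. All Zeb2-deleted against WT had 47, and 23 with centring, 21 with the pseudocount, 277 with weights, 24 with the block and 6 to 238. Nfil3 Zeb2 DKO against Zeb2 KO had 1, and 4 with weights and 1 to 106. Zeb2 Id2 DKO against Zeb2 KO had 99, and 256 with weights, 20 in the 2-group fit and 25 to 148. Zeb2 Id2 DKO against Nfil3 Zeb2 DKO had 158, and 1139 with weights, 833 in the 2-group fit and 23 to 704. The highest of these left-out counts came without Zeb2 KO replicate 3, also reached in Nfil3 Zeb2 DKO against WT without Nfil3 Zeb2 DKO replicate 2. Deviations from the group means were correlated between same-numbered arrays of different groups. The 13 correlations ran from -0.312 to 0.162, with 1 over 0.1. In groups of 2 arrays the deviations mirror each other, so these values cannot settle whether replicate numbers pair the arrays. All comparisons share 1 estimate of the spread, so an omitted array also changes calls between other groups. For Cdh1 in Zeb2 Id2 DKO against WT the difference stayed at 0.893 without Zeb2 KO replicate 3. Its standard error went from 0.174 to 0.093. Beyond that, the cause of these shifts in counts was not tested. The scalings moved the median of all genes by less than 0.1 in each comparison, the most in Zeb2 Id2 DKO against Nfil3 Zeb2 DKO, from -0.03 to 0.02 after median centring.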
